A study of Homo sapiens with 4 samples.

Results

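The genes examined here are those of WNT signalling: the WNT ligands, the Frizzled receptors, their co-receptors and a set of regulators inside and outside the cell. They were chosen by name, as every symbol of the form WNT or FZD plus a number, together with 16 named partners, and 45 of the 61228 features in the count files met that rule. Of these, 33 had 10 or more counts in at least 2 libraries and are described below, and each of the 33 could be tested. Both libraries of a single group carried WNT4 and WNT6 past that count rule, so these genes had to differ between groups; the other 31 had 10 or more counts in libraries of both groups.

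Transcripts were measured by RNA-seq in H1792, an established human lung cancer cell line whose genotype the labels give as WT, after 96 h with the solvent DMSO or with ACBI1. ACBI1 is a degrader that recruits the VHL ubiquitin ligase to SMARCA2, SMARCA4 and PBRM1, which are ATPases and a subunit of SWI/SNF chromatin remodelling complexes. The labels write its dose as 1 mM, which the counts cannot check. Each group held 2 libraries, and since nothing says that these came from separate cultures, the p-values measure the spread between libraries, which may be technical.

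WNT proteins are secreted, lipid-modified ligands that bind a Frizzled receptor. With the co-receptors LRP5 or LRP6 the signal stops the AXIN and APC complex from marking β-catenin (CTNNB1) for destruction, and β-catenin then acts on genes with the TCF and LEF factors. With ROR1 or ROR2, ligands such as WNT5A instead act on cell shape and movement without β-catenin. The secreted protein DKK1 and the membrane ubiquitin ligases RNF43 and ZNRF3 restrain the pathway, and several of its inhibitors are also its targets. In lung, WNT signals act in branching of the airways and in the upkeep of alveolar stem cells.

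Counts assigned to genes summed to between 64281850 and 86010100 per library, and the 45 genes held 0.0974% to 0.137% of them. Across genes, Pearson's r of log2(CPM + 1), where CPM is counts per 1000000 TMM-scaled gene counts, was 0.989 between the DMSO libraries and 0.992 between the ACBI1 libraries, and 0.947 to 0.964 between groups. Of 6 epithelial markers, 5 passed the count rule, and their summed level was 981 and 1030 CPM with DMSO and 323 and 202 CPM with ACBI1; most of it came from KRT7, at 677 and 680 CPM with DMSO and 179 and 60.3 CPM with ACBI1. EPCAM of the same list was at 5.38 and 2.78 CPM with DMSO and at 15.6 and 4.83 CPM with ACBI1, and CDH1 had at most 16 counts in a library. The lung markers NKX2-1 and SFTPC had at most 1 count in a library, and the leukocyte markers PTPRC and CD3E at most 2. The 4 fibroblast markers, which cultured tumour cells can also express, were present and summed to 31.6 and 96.8 CPM with DMSO and to 9.38 and 13.2 CPM with ACBI1. Of 3 endothelial markers CDH5 had at most 4 counts, while PECAM1 brought the sum to 12.6 and 48.5 CPM with DMSO and 0.0112 and 0.0457 CPM with ACBI1. The fibroblast and endothelial sums were highest in DMSO replicate 2, and their part in the results below was not tested.

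Promoter sequence was read for 32 of the 45 genes from RefSeq (GRCh38.p14), in windows from 250 bases before to 50 bases after a transcript start, 39 windows in all. Genes without a window included AXIN2 and, of those that changed in the test below, WNT7B, WNT10B, FZD2, FZD7, DKK3 and ZNRF3. The TCF/LEF core CTTTGAT, searched on both strands, was in 0 of the 39 windows and in 2.62% of all 35116 promoter windows of that length. So few windows cannot separate 0 from a share of 2.62%. The AP-1 site TGANTCA was in 1 of the 39 windows, at one of the starts of RNF43, and in 7.71% of all windows. Of 14 further genes widely used as readouts of β-catenin, windows were read for 9, and among these 9 the TCF/LEF core was found for SP5. These 2 windows are shown with the match in capitals, beside a window of WNT5A, the most abundant ligand with DMSO, which held neither motif. A match is a run of letters and not evidence of binding, and distal elements were not read.
SP5, chr2:170715087-170715386, plus strand: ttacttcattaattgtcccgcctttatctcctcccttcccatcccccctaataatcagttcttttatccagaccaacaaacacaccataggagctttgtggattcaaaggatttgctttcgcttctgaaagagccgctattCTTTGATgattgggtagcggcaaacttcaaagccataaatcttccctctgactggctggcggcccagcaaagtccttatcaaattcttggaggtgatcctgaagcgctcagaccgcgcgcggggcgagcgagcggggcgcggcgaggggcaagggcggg
RNF43, chr17:58402672-58402971, minus strand: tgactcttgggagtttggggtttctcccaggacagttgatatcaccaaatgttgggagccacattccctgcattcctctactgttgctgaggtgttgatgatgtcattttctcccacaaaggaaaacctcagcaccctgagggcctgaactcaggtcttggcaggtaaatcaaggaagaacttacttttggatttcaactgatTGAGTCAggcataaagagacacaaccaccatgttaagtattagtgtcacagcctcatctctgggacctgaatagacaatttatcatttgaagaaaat
WNT5A, chr3:55487257-55487556, minus strand: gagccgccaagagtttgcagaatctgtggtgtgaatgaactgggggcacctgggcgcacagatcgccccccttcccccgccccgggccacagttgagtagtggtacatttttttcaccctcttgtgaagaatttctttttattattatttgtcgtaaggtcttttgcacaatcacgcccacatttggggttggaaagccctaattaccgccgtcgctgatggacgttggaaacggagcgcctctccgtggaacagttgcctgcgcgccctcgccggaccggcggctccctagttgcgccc

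Of the 33 genes tested, 13 changed with ACBI1 at a Benjamini-Hochberg adjusted p under 0.05 in edgeR's quasi-likelihood test, 10 lower and 3 higher. The lower ones were the ligands WNT4, WNT5A, WNT5B, WNT6 and WNT7B, the receptors FZD2 and FZD7, the Dickkopf family member DKK3, and CTNNB1 and TCF7. The higher ones were WNT10B, FZD9 and ZNRF3. Over all 19159 genes tested, 17.4% were called, 10.6% lower and 6.75% higher. The gene choice was made with earlier results of these data known, so this comparison is not independent of it. Among the 31 genes with 10 counts in both groups, 8 were called lower and 3 higher. The share called of all genes under this narrower rule is not given, here or for the lists below. The median log2 change was -0.52 over the 33 genes and 0.00797 over all genes tested. Libraries of the groups did not overlap for 26 of the 33, where 63.2% of all tested genes showed no overlap. In bulk RNA, fewer cells with a transcript and less transcript per cell cannot be told apart.

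**Figure D1:**
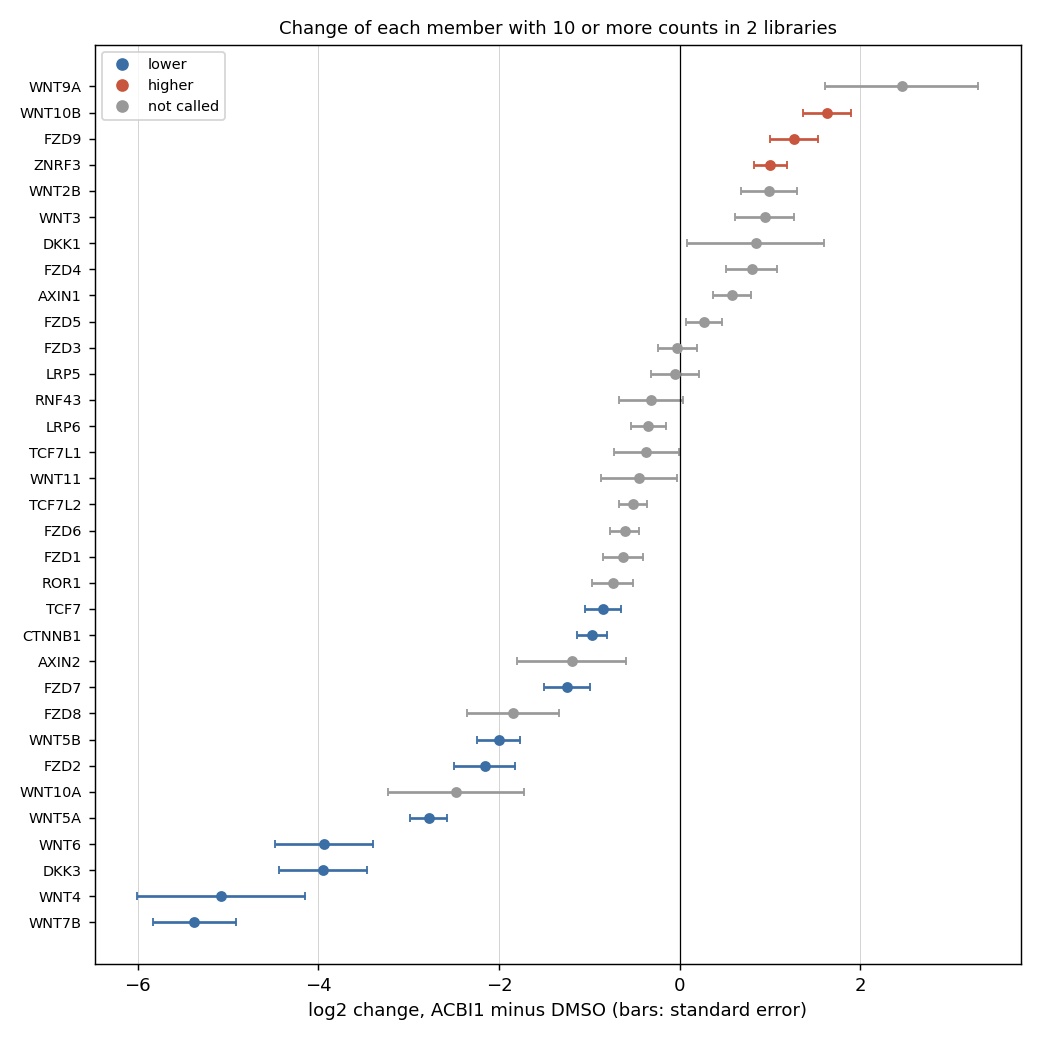
Log2 change (ACBI1 minus DMSO, edgeR) of the 33 genes with 10 or more counts in at least 2 libraries, ordered by size, with standard errors as bars. Blue points were called lower, red points higher and grey points neither; the called values run from -5.37 for WNT7B to 1.63 for WNT10B.

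The ligands were the role with the largest changes. WNT5A, on chromosome 3 (55465715 to 55490539, GRCh38, minus strand), stood at 115 and 85.7 CPM with DMSO and at 15.3 and 14.0 CPM with ACBI1. It fell by 2.78 on the log2 scale (SE 0.20, edgeR adjusted p 0.00230), 6.85-fold. Both ACBI1 libraries lay far below both DMSO libraries, and the gap between groups was much wider than that within them. Its paralog WNT5B, on chromosome 12 (1529891 to 1647243), was at 45.9 and 40.7 CPM with DMSO and at 12.9 and 8.72 CPM with ACBI1. It fell 4.01-fold, with a log2 change of -2.0 (SE 0.24, adjusted p 0.00604). WNT5A-AS1, the antisense gene of WNT5A, had 37 and 33 counts with DMSO and 1 and 3 with ACBI1. The strand setting of the counting is not stated, so reads from bases shared by such a pair could not be told apart. In the annotation used here for lengths, 0% of the exonic length of WNT5A is shared with other genes. The authors' annotation may differ. The counts of WNT5A-AS1 are small beside the 9352 and 6168 counts of WNT5A with DMSO.

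WNT7B, an epithelial ligand of the developing lung, had the largest fitted fall of the 33 genes. It was at 10.3 and 16.8 CPM with DMSO and at 0.234 and 0.427 CPM with ACBI1, which rested on 21 and 28 counts in the treated libraries. The log2 change was -5.37 (SE 0.46, adjusted p 0.00265), a 41.5-fold fall. WNT6 was rare, at 0.675 and 0.736 CPM with DMSO and 5 and 2 counts with ACBI1, and had a log2 change of -3.94 (SE 0.54, adjusted p 0.00855). WNT4, a ligand known from kidney and gonad development, had 62 and 270 counts with DMSO and 5 in each ACBI1 library. Its log2 change was -5.08 (SE 0.93, adjusted p 0.0190), but the DMSO libraries differed from each other at 0.761 and 3.75 CPM. Without DMSO replicate 2 the log2 change of WNT4 was -3.52, without DMSO replicate 1 it was -5.81, and without ACBI1 replicate 1 it was -4.84 and was not called (adjusted p 0.0565).

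WNT10B, a ligand of the β-catenin branch, was the only ligand called higher. It was at 2.43 and 2.31 CPM with DMSO and at 7.22 and 7.47 CPM with ACBI1, so that replicates lay close together and the groups far apart. It rose 3.10-fold, a log2 change of 1.63 (SE 0.27, adjusted p 0.0138). WNT3, also a β-catenin ligand, was at 18.9 and 14.3 CPM with DMSO and at 41.8 and 22.1 CPM with ACBI1. The test did not call it (log2 change 0.94, SE 0.33, adjusted p 0.102); the lower ACBI1 library lay close to the higher DMSO library. WNT2B had a similar log2 change of 0.99 (SE 0.31, adjusted p 0.0785), with 21.2% of its exonic length shared with other genes.

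WNT9A and WNT10A differed widely between replicates. WNT9A was at 0.896 and 1.79 CPM with DMSO and at 2.1 and 12.7 CPM with ACBI1, and its log2 change of 2.46 (SE 0.85, adjusted p 0.0990) was 0.64 without ACBI1 replicate 2. WNT10A was at 0.638 and 2.83 CPM with DMSO and at 0.257 and 0.366 CPM with ACBI1. Its log2 change was -2.48 (SE 0.75, adjusted p 0.0716), and -1.05 without DMSO replicate 2, the library with the higher fibroblast and endothelial marker sums. WNT11 had a log2 change of -0.45 (SE 0.42, adjusted p 0.506), with libraries of the groups overlapping.

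The other 8 ligands were below the count rule. WNT3A, WNT7A and WNT8A had 0 counts in every library, which allows at most 0.0335 to 0.0457 CPM, the level of 3 counts. WNT1, WNT2, WNT9B and WNT16 had between 0 and 7 counts in a library. WNT8B had 0 counts in both DMSO libraries and 9 and 8 with ACBI1, at least 5.60-fold higher when the DMSO group is set to 3 counts in all, and at least 4.08-fold by the 95% exact interval for counting error in both groups; it was not tested.

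**Figure D2:**
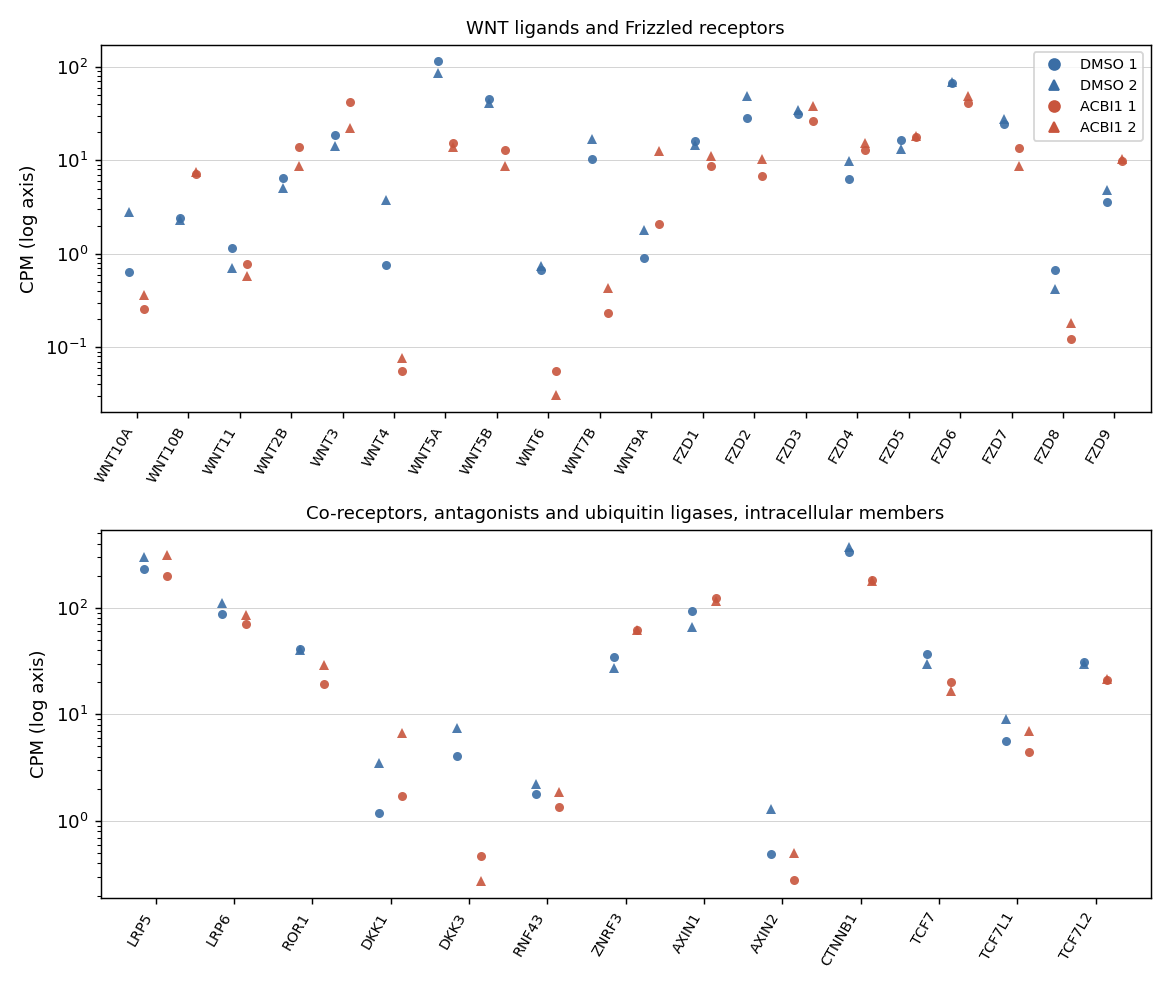
CPM of the 33 genes in each library on log axes, with ligands and Frizzled receptors above and the other roles below. Blue points are the DMSO libraries and red points the ACBI1 libraries, circles replicate 1 and triangles replicate 2; WNT7B, WNT4, WNT6 and DKK3 show the widest gaps between colours.

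To compare levels between ligands, CPM were divided by the exonic length in kilobases (GENCODE 29), which gives CPM per kb. Summed over the 19 ligands, this level was 35.5 and 31.8 CPM per kb in the DMSO libraries and 19.7 and 16.3 CPM per kb in the ACBI1 libraries. WNT5A and WNT5B together made up 73.7% and 66.1% of the ligand sum with DMSO and 25.7% and 24.0% with ACBI1. The share of WNT3 was 12.3% and 10.4% with DMSO and 49.1% and 31.2% with ACBI1, and that of WNT10B 2.60% and 2.76% against 14.0% and 17.4%. WNT9A took 2.69% in ACBI1 replicate 1 and 19.6% in replicate 2. With DMSO the order by mean level began with WNT5A at 13.6 ± 2.78 CPM per kb, WNT5B at 10.1 ± 0.853 and WNT3 at 3.84 ± 0.745 (SD, n = 2), of which the former pair differed by little more than its spread. With ACBI1 it began with WNT3 at 7.37 ± 3.22 CPM per kb, WNT10B at 2.79 ± 0.0663 and WNT5B at 2.51 ± 0.682 (SD, n = 2), and the ranges of WNT10B and WNT5B overlapped. With 2 libraries in each group the smallest p an exact permutation test can give is 0.333, so sums and shares were not tested.

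**Figure D3:**
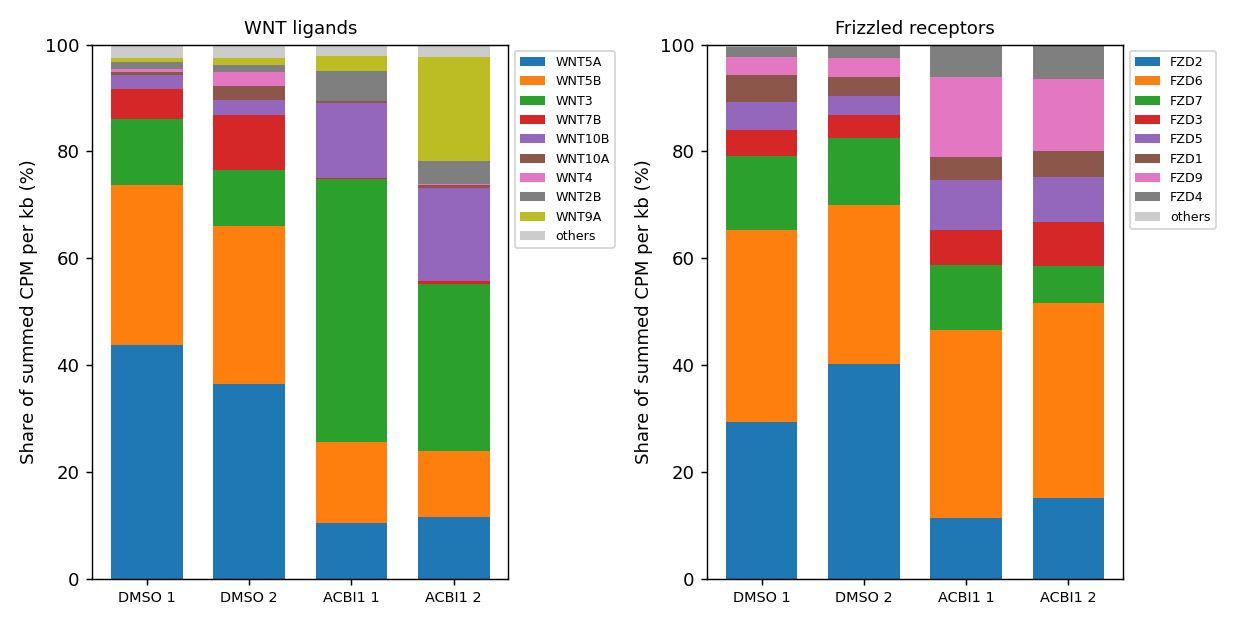
Share of each gene in the summed CPM per kb of the ligands (left) and of the Frizzled receptors (right), as percent, with 1 stacked bar for each library. WNT5A and WNT5B fill 73.7% and 66.1% of the DMSO bars and 25.7% and 24.0% of the ACBI1 bars; FZD6 holds 29.6% to 36.5% of every Frizzled bar.

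Several ligand genes are neighbours in the genome. WNT6 and WNT10A lie on chromosome 2 with 6129 bases between them, and both had negative log2 changes (-3.94 and -2.48), of which that of WNT6 was called. WNT10B and WNT1 lie on chromosome 12 with 6689 bases between them; WNT10B rose while WNT1 had 1 count in all. WNT3 and WNT9B lie head to head on chromosome 17 with 46 bases between the annotated genes, and WNT9A and WNT3A on chromosome 1 with 59152 bases between them. In these last pairs 1 gene was near or at 0 counts throughout, WNT9B with at most 2 in a library and WNT3A with 0.

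Of the 9 Frizzled genes tested, 2 fell and 1 rose. FZD2, on chromosome 17 (44557459 to 44559570), was at 28.5 and 48.9 CPM with DMSO and at 6.86 and 10.5 CPM with ACBI1. It fell 4.47-fold, a log2 change of -2.16 (SE 0.34, adjusted p 0.0121). FZD7, a receptor of the same sequence subfamily as FZD1 and FZD2, was at 24.6 and 27.9 CPM with DMSO and at 13.4 and 8.71 CPM with ACBI1. Its log2 change was -1.24 (SE 0.26, adjusted p 0.0257), and without ACBI1 replicate 2 it was -0.98 and was not called (adjusted p 0.0797). FZD9 was at 3.60 and 4.81 CPM with DMSO and at 9.92 and 10.4 CPM with ACBI1. It rose 2.41-fold, a log2 change of 1.27 (SE 0.27, adjusted p 0.0272). FZD9 was not called without ACBI1 replicate 1 (log2 change 1.31) or replicate 2 (log2 change 1.23).

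The other receptors did not pass the test. FZD6, the most abundant Frizzled by CPM, was at 67.4 and 69.0 CPM with DMSO and at 40.7 and 48.7 CPM with ACBI1, a log2 change of -0.61 (SE 0.16) whose adjusted p of 0.0512 lay just above the threshold. FZD8 was rare, at 0.675 and 0.417 CPM against 0.123 and 0.183 CPM, with a log2 change of -1.85 (SE 0.51, adjusted p 0.0565). The log2 change of FZD1 was -0.63 (adjusted p 0.108) and that of FZD5 was 0.27 (adjusted p 0.401). For FZD4 it was 0.80 (adjusted p 0.106), and other genes share 18.9% of that gene's exonic length. The libraries of FZD3 overlapped between groups (log2 change -0.03, adjusted p 0.95). FZD10 had 0 counts in every library.

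The summed Frizzled level was 46.0 and 57.4 CPM per kb with DMSO and 28.5 and 32.9 CPM per kb with ACBI1. FZD2 made up 29.3% and 40.3% of it with DMSO and 11.4% and 15.1% with ACBI1, while FZD9 made up 3.34% and 3.58% against 14.9% and 13.5%. The share of FZD6 was 36.0% and 29.6% with DMSO and 35.1% and 36.5% with ACBI1, so that it overlapped between groups.

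Among co-receptors none of the 3 tested was called. LRP5 was the most abundant of the 45 genes per length, at 42.8 ± 7.59 CPM per kb with DMSO and 41.3 ± 13.0 CPM per kb with ACBI1 (SD, n = 2). Its libraries were at 231 and 297 CPM and at 198 and 311 CPM, with a log2 change of -0.05 (SE 0.26, adjusted p 0.912). LRP6 had a log2 change of -0.35 (SE 0.19, adjusted p 0.258). ROR1, a receptor for WNT5A, was at 41.2 and 39.8 CPM with DMSO and at 19.4 and 29.1 CPM with ACBI1, a log2 change of -0.74 (SE 0.23, adjusted p 0.0722). ROR2, the other receptor of that kind, had at most 1 count in a library.

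Among the Dickkopf and SFRP genes and the ubiquitin ligases, DKK3 fell and ZNRF3 rose. DKK3, a secreted member of the Dickkopf family, was at 4.11 and 7.53 CPM with DMSO and at 0.469 and 0.274 CPM with ACBI1. The log2 change was -3.95 (SE 0.49, adjusted p 0.00680), a 15.4-fold fall. ZNRF3, which removes Frizzled receptors from the cell surface, was at 34.8 and 27.0 CPM with DMSO and at 61.7 and 62.2 CPM with ACBI1. It rose by 1.00 on the log2 scale (SE 0.18, adjusted p 0.0178). The call was lost without ACBI1 replicate 1 (log2 change 1.02) or replicate 2 (log2 change 0.99). Its relative RNF43 was lower in level, at 1.79 and 2.21 CPM against 1.34 and 1.88 CPM, with a log2 change of -0.32 (SE 0.35, adjusted p 0.578); 73.9% of its exonic length is shared with other genes, so its level is uncertain. DKK1, the Dickkopf protein that blocks LRP5 and LRP6, was at 1.19 and 3.53 CPM with DMSO and at 1.72 and 6.75 CPM with ACBI1. In both groups replicate 2 was the higher one and the groups overlapped (log2 change 0.84, SE 0.76, adjusted p 0.483), and without ACBI1 replicate 2 the log2 change was -0.46. SFRP1 had 0 counts in every library.

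Inside the cell, transcripts of CTNNB1, which encodes β-catenin, fell. CTNNB1, on chromosome 3 (41194741 to 41260096), was at 332 and 374 CPM with DMSO and at 182 and 177 CPM with ACBI1. It fell 1.97-fold, a log2 change of -0.97 (SE 0.17, adjusted p 0.0155). TCF7 was at 37.1 and 29.5 CPM with DMSO and at 20.1 and 16.7 CPM with ACBI1, a log2 change of -0.85 (SE 0.20, adjusted p 0.0358). Without ACBI1 replicate 1 or 2, CTNNB1 was not called, with log2 changes of -0.99 and -0.96. Nor was TCF7 called in these fits, with log2 changes of -0.98 and -0.74. TCF7 was also not called without DMSO replicate 1 (log2 change -0.67). Protein was not analysed here, and β-catenin is set largely by protein turnover.

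The other TCF genes and the AXIN genes did not pass. TCF7L2, the most abundant TCF per length, was at 31.2 and 29.8 CPM with DMSO and at 21.0 and 21.7 CPM with ACBI1, a log2 change of -0.52 (SE 0.16, adjusted p 0.0744). TCF7L1 had a log2 change of -0.37 (SE 0.36, adjusted p 0.521), and LEF1 had at most 2 counts in a library. AXIN1, a scaffold of the destruction complex, was at 93.8 and 65.7 CPM with DMSO and at 123 and 116 CPM with ACBI1, a log2 change of 0.58 (SE 0.21, adjusted p 0.11). AXIN2, the scaffold that is also a common readout of β-catenin, was at 0.491 and 1.29 CPM with DMSO and at 0.279 and 0.503 CPM with ACBI1. Its libraries overlapped between groups (log2 change -1.20, SE 0.60, adjusted p 0.219), and the log2 change was -0.34 without DMSO replicate 2; 25.2% of its exonic length is shared with other genes.

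A further 62 genes of the pathway were read from a list. Of 48 that could be tested, 6 rose and 5 fell, 22.9% against 17.4% of all genes, and the median log2 change was 0.0563. RSPO3 and PRICKLE2, both lower, reached 10 counts with DMSO only and so had to differ to be tested; of the 44 genes with 10 counts in both groups, 6 rose and 3 fell (20.5%). Without ACBI1 replicate 1, 4 of the pathway genes were called (8% of those tested, against 6.89% of all genes), and without ACBI1 replicate 2, 6 were (11.5% against 8.84%). Without DMSO replicate 1, 16 were called, 6 higher and 10 lower (31.4% against 21.3%), and without DMSO replicate 2, 9 were, 7 higher and 2 lower (18% against 12.8%). The 4 with the largest changes were PRICKLE2, KREMEN2, RSPO3 and DKKL1; the other 7 called genes are named here after their values were seen. KREMEN2 and KREMEN1, surface receptors that act with DKK1 against LRP6, both rose. KREMEN2 was at 0.123 and 0.181 CPM with DMSO and at 2.57 and 4.86 CPM with ACBI1, a log2 change of 4.61 (SE 0.52, adjusted p 0.00534). KREMEN1 was at 9.02 and 8.81 CPM with DMSO and at 30.3 and 19.8 CPM with ACBI1, a log2 change of 1.49 (SE 0.25, adjusted p 0.0155). DKKL1, a Dickkopf-like secreted protein, was at 0.135 and 0.125 CPM against 1.12 and 0.671 CPM for a log2 change of 2.77 (SE 0.49, adjusted p 0.0169). Without ACBI1 replicate 1 neither KREMEN1 (log2 change 1.16) nor DKKL1 (log2 change 2.36) was called.

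RSPO3, an R-spondin that strengthens WNT signals by way of LGR receptors and ZNRF3, had 14 and 16 counts with DMSO and 2 and 1 with ACBI1. Per library size this is 10.1 times as many reads with DMSO (95% exact interval from counting error, 3.15 to 51.8; adjusted p 0.0279), and DESeq2 did not call it (adjusted p 0.0832). Among genes of planar polarity, the cytoskeletal branch, PRICKLE2 had 12 and 27 counts with DMSO and 0 in both ACBI1 libraries, at least 13.1-fold lower when the ACBI1 group is set to 3 counts in all, and at least 10.2-fold by the 95% exact interval (adjusted p 0.0275), with 25.2% of its exonic length shared. DAAM1, a formin that links dishevelled to actin, fell by 1.14 on the log2 scale (adjusted p 0.0290), and the polarity scaffold SCRIB rose by 0.97 (adjusted p 0.0310). TPBG, a surface protein known to inhibit LRP6, was at 148 and 176 CPM with DMSO and at 18.3 and 37.4 CPM with ACBI1, a log2 change of -2.54 (SE 0.35, adjusted p 0.00872), or -3.15 without ACBI1 replicate 2. Of the rest, TLE3, a corepressor of TCF factors, fell by 1.02 on the log2 scale (adjusted p 0.0118). The dishevelled gene DVL2 rose by 0.70 (adjusted p 0.0384) and APC2, a relative of APC, by 2.67 (adjusted p 0.0333), the change of APC2 being 1.71 without ACBI1 replicate 2 and 3.26 without ACBI1 replicate 1. The calls of RSPO3 and DVL2 were lost without DMSO replicate 2 or either ACBI1 library. In these fits the log2 change ran from -3.54 to -3.06 for RSPO3 and from 0.56 to 0.72 for DVL2. PRICKLE2 and TLE3 lost theirs without either ACBI1 library, where the log2 change of TLE3 was -0.98 and -1.06. SCRIB lost its call without DMSO replicate 2 (log2 change 0.80) or ACBI1 replicate 2 (0.77). DAAM1 lost its call without DMSO replicate 2 (log2 change -0.85) or ACBI1 replicate 1 (-0.97). APC2 was not called without ACBI1 replicate 2 or in limma-voom (adjusted p 0.0544).

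The genes that make and release the ligands were not called. For PORCN, the enzyme that attaches the lipid, the log2 change was -0.62 (adjusted p 0.0880), and for the carrier WLS it was -0.65 (adjusted p 0.161). NOTUM, a secreted enzyme that removes the lipid, was at 44.0 and 99.7 CPM with DMSO and at 160 and 157 CPM with ACBI1, above both DMSO libraries, with a log2 change of 1.14 (SE 0.37) that did not pass (adjusted p 0.0848). The log2 change of NOTUM was 0.67 without DMSO replicate 1 and 1.84 without DMSO replicate 2.

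Of 14 genes used as readouts of β-catenin, mostly in gut and embryo, 11 could be tested, and 2 rose and 1 fell, 27.3% against 17.4% of all genes; their median log2 change was -0.57. The gene that fell, SP5, reached 10 counts with DMSO only and so had to differ to be tested. Of the 9 with 10 counts in both groups, 2 rose and 0 fell (22.2%). Called or not, 7 of the 11 had negative log2 changes and 4 positive ones. AXIN2, RNF43, ZNRF3, TCF7 and LEF1 are also such readouts but were counted only among the 45 genes. There ZNRF3 was called higher and TCF7 lower, AXIN2 and RNF43 were not called, and LEF1 was not tested. BMP4 (log2 change -3.20, SE 0.89, adjusted p 0.0568) and TNFRSF19 (-3.03, SE 1.01, adjusted p 0.0919), named after their values were seen, were not called. Without DMSO replicate 2 their log2 changes were -1.41 and -0.95. MYC and CCND1, also named after their values were seen, had positive log2 changes and were not called. MYC was at 3761 and 4671 CPM with DMSO and at 5792 and 7736 CPM with ACBI1. Its log2 change was 0.68 (SE 0.24, adjusted p 0.104). For CCND1 the log2 change was 0.20 (SE 0.22, adjusted p 0.561), with libraries of the groups overlapping. NKD1 and NKD2, feedback inhibitors that bind dishevelled, rose. NKD1 was at 0.209 and 0.125 CPM with DMSO and at 2.55 and 1.88 CPM with ACBI1, a log2 change of 3.71 (SE 0.46, adjusted p 0.00673). NKD2 was at 5.46 and 4.21 CPM with DMSO and at 42.1 and 24.4 CPM with ACBI1, a log2 change of 2.78 (SE 0.32, adjusted p 0.00580). SP5, whose promoter with the TCF/LEF core is printed above, was rare and went the other way, with 16 and 10 counts against 2 and 1, 8.76 times as many reads with DMSO per library size (95% exact interval from counting error, 2.69 to 45.2; adjusted p 0.0367). SP5 was not called by DESeq2 (adjusted p 0.134). Nor was it called without DMSO replicate 2 (log2 change -3.25), ACBI1 replicate 1 (-3.32) or ACBI1 replicate 2 (-2.84). With 1 library left out, the log2 change of NKD1 ran from 3.39 to 4.13 and that of NKD2 from 2.34 to 3.11.

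**Figure D4:**
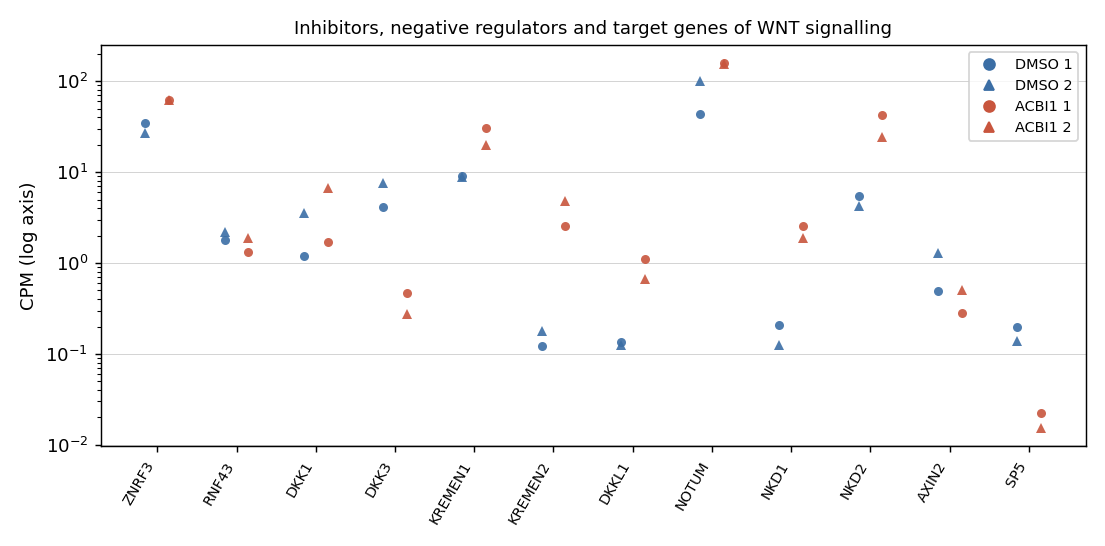
CPM in each library, on a log axis, of Dickkopf genes, inhibitors, negative regulators and target genes named in the text. Blue is DMSO, red is ACBI1, circles are replicate 1 and triangles replicate 2. ZNRF3, KREMEN1, KREMEN2, DKKL1, NKD1 and NKD2 were called higher, DKK3 and SP5 lower, and RNF43, DKK1, NOTUM and AXIN2 were not called.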

How the data were processed

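RNA-seq read counts for each gene symbol, not normalized, were used as deposited by the authors, 1 file for each of 4 H1792 libraries. TopHat2 2.1.1, HTSeq 0.11.0 and hg38 are named in the submitters' processing notes; the annotation and strand setting are not given in the sources used here. The 5 summary lines were left out of library sizes, and reads in gene counts were 84.6% to 86.1% of those listed. Groups came from sample titles. edgeR 4.0.16 in R 4.3.3 was run with filterByExpr (minimum count 10, total 15), TMM and the quasi-likelihood F-test (two-sided, treatment only), with adjustment over all 19159 genes. The SE is the log2 change over the square root of F. Counting intervals and the floor of 3 counts cover counting error only. Lengths, shared exons and positions came from GENCODE 29 (GRCh38), which may differ from the authors' annotation. The method was tested on simulated data, where most of the smaller changes put in were not called. Alternatives were 3 scalings, 2 filters, DESeq2 1.42.0, limma-voom 3.58.1, a block, a stricter threshold and each library left out; a lone library was assumed to vary like the other group. All genes with 10 counts in 2 libraries are named, and in the other lists the 4 called genes that changed most, save where said. The gene choice and lists were made with earlier results of these data known.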

Additional observations from a re-analysis of the deposited data

How the results depend on the processing

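The 13 calls among the 33 genes (3 higher, 10 lower) were all kept under DESeq2 size factors, library size only, upper quartile scaling, limma-voom and a filter of 10 counts in 2 libraries, each of which also gave 13. With no filter, 23 of 40 WNT genes, 19 of 59 further pathway genes and 8 of 13 readout genes (3 higher, 5 lower) were called. Over all genes 5518 of 32871 were called (16.8%). DESeq2 called 20 WNT genes (7 higher, 13 lower), 13 pathway genes, 5 readout genes and 4511 genes in all (23.5%, against 17.4%); the WNT genes it added were WNT10A, WNT2B, WNT3, WNT9A, FZD4, FZD6 and ROR1. At an adjusted p under 0.01, 5 WNT genes (15.2%, each lower), 2 pathway genes (4.17%) and 2 readout genes (18.2%, each higher) remained. Over all genes 783 remained (4.09%), of which 78% were lower. With the replicate number as a block, 27 WNT genes (9 higher, 18 lower) and 24 pathway genes were called. So were 8 readout genes (3 higher, 5 lower) and 7909 genes in all (41.3%). The WNT genes the block added were WNT10A, WNT2B, WNT3, WNT9A, FZD1, FZD4, FZD6, FZD8, LRP6, ROR1, DKK1, AXIN1, AXIN2 and TCF7L2. Among them, DKK1 (log2 change 0.745, edgeR adjusted p 0.0404) and AXIN2 (-1.105, 0.0406) had libraries that overlapped between groups. The replicate numbers share no stated batch, and the difference between replicates correlated between groups with r = 0.535 across genes. With 1 library left out, the counts ran from 9 to 16 for WNT genes, 4 to 16 for pathway genes, 2 to 5 for readout genes and 1379 to 4292 for all genes, lowest without ACBI1 replicate 1 for WNT, pathway and all genes. All 13 called WNT genes kept their sign in each such fit, and 8 to 13 kept their call. The small log2 changes of FZD3 and LRP5 changed sign with the scaling, and those of DKK1 and TCF7L1 when 1 library was left out. Depth limits the genes with few counts, WNT4, WNT6, RSPO3, PRICKLE2 and SP5.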
